A study of Mus musculus with 4 samples.

Results

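Tfap2a, Tfap2b and Tfap2d, the 3 genes of the AP-2 transcription factor family on a panel of 300 genes, were followed across retinal ganglion cells (RGCs), whose axons form the optic nerve. The members were taken by gene symbol, and all 3 were measured in every cell. The data came from Xenium, an imaging assay in which single transcripts are decoded as puncta inside tissue sections. Wild-type C57BL/6 mouse retinas, from animals grown without manipulation, were cut en face, that is parallel to the retinal surface, as cryosections of 20 µm, so the study holds 1 group of 5 retinas and no treated or mutant animals. The table gave 131379 cells, each assigned by the authors to 1 of 45 RGC types, from 41 sections on 8 slides, and no age or sex was given. The retina was the replicate in the main fits and tests. No label says that the 5 retinas came from separate animals. Each p of these fits thus reflects how far the 5 retinas differ, which may not be the spread among mice.

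AP-2 proteins bind DNA as dimers through a helix-span-helix domain and recognise GC-rich palindromic sites. In the developing mouse retina, Tfap2a and Tfap2b are known for their roles in amacrine and horizontal cells, the inhibitory interneurons of the retina. Tfap2d is expressed in the mouse midbrain and in subsets of RGCs.

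The sequences at the start of the 3 genes are shown because Tfap2a and Tfap2b had similar patterns over the types, described below, and Tfap2d did not. Tfap2d and Tfap2b lie next to each other on chromosome 1, with 0 annotated genes between them, and Tfap2a lies on chromosome 13. RefSeq (GRCm38.p6) lists 2 promoter entries for Tfap2a, 1 for Tfap2b and 3 for Tfap2d, each from 250 bases before to 50 bases after a transcript start, and the first listed of each is printed 5′ to 3′ on the gene's strand. They lie at chr13:40734871-40735170 (minus strand), chr1:19211804-19212103 (plus strand) and chr1:19102772-19103071 (plus strand). The capitals mark the letters ATTAAT, which occur in binding sites of POU4F factors.
Tfap2a: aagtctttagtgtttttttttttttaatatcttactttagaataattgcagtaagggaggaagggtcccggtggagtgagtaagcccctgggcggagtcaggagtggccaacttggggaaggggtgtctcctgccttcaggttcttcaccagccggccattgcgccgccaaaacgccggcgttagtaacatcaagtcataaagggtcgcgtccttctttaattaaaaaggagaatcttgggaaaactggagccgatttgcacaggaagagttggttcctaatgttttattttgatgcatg
Tfap2b: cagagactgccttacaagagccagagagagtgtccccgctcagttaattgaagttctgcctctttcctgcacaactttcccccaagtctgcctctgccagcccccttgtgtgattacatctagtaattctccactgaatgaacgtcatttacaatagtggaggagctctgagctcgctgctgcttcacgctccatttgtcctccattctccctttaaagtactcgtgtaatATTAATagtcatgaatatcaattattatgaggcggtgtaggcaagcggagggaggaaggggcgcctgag
Tfap2d: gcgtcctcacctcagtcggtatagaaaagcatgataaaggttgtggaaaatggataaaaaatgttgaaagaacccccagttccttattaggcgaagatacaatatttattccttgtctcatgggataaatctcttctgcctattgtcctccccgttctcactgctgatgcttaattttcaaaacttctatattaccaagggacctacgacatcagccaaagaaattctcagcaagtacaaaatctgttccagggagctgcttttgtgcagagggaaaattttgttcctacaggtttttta
Searched on both strands, the AP-2 palindrome GCCNNNGGC was found in 0 of these 3 windows, against 16.6% of 32817 RefSeq promoters of the same length. The letters TGACAG, bound by MEIS factors, were likewise found in 0 of the 3, against 19.2% of promoters. ATTAAT was found 1 time, in the Tfap2b window, against 4.75% of promoters. The matches describe letters only, and the puncta counts do not bear on binding. GC content was 46.3% in the Tfap2a window, 48.3% in the Tfap2b window and 39.7% in the Tfap2d window, with a median of 52.7% over all promoters. Other entries of the same genes were richer, 61% in the second of Tfap2a and 56.7% in the third of Tfap2d.

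The cells were deep enough to show these genes in a minority of cells. Each cell held at least 100 puncta over the panel, with a median of 304, and 0 cell identifiers were shared between retinas. Defining RGC genes were present, with Rbpms puncta in 94.5% of cells and 97.1% for Slc17a6, the vesicular glutamate transporter. Genes of a list of amacrine markers, 17 of 24 on the panel, summed to 51.9 to 54.6 puncta per 1000 over the 5 retinas, most of it Pax6 and Meis2, and none of the 17 was at 0. Fewer transcripts per cell and fewer cells with the transcript cannot be told apart from the summed values, so shares of cells are given beside the levels. The 11 sections with under 500 cells (1719 cells in all) ranged from 0 to 10.2 Slc17a6 and from 0.263 to 5.14 Rbpms puncta per cell, against 8.86 to 14.5 and 4.24 to 8.92 in the 30 larger ones, so some lay within the range of the larger sections and some below it.

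Tfap2a averaged 0.445 ± 0.027 puncta per RGC (SD, n = 5 retinas). Its level was 0.451, 0.449, 0.472, 0.399 and 0.453 puncta per cell in retinas 1 to 5. Tfap2b averaged 0.513 ± 0.050, with 0.551, 0.505, 0.540, 0.429 and 0.541 in retinas 1 to 5. Retina 4 was the lowest for both. Tfap2d averaged 0.339 ± 0.037, with 0.343, 0.401, 0.314, 0.313 and 0.322, and retina 2 was the highest. At least 1 punctum was found in 28.6% of cells for Tfap2a, 30.7% for Tfap2b and 19.5% for Tfap2d, and at least 2 in 9.19%, 10.6% and 7.72%. A single cell held up to 16 puncta of Tfap2a, 26 of Tfap2b and 18 of Tfap2d. Levels are not compared between the genes, since probe number and probe efficiency differ by an amount not given in the sources used here. Cells with a member were deeper: the median depth was 331 puncta in cells with Tfap2a and 292 in cells without, 332 and 292 for Tfap2b, and 357 and 291 for Tfap2d.

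The 3 genes differed in how their levels varied across the 45 types. The authors' types may rest on these genes, so type levels are a description, with no test. The coefficient of variation across types was 148% for Tfap2d in puncta per cell, 38th of the 300 genes, against a median of 60% over the panel. It was 21.2% for Tfap2b, 289th of the 300, and 18.8% for Tfap2a, 292nd. The highest type exceeded the lowest 56.7 times for Tfap2d, 2.29 times for Tfap2b and 2.15 times for Tfap2a. In puncta per 1000 puncta, which sets aside the depth of each type, these ratios were 95.5, 4.42 and 3.57. The Tfap2d ratios are imprecise, since the lowest type, 43_AlphaONS, held 69 Tfap2d puncta in 1819 cells. Its retinas ran from 0.0230 to 0.0881 puncta per cell. The plot of levels by type sets the 3 genes side by side.

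**Figure D1:**
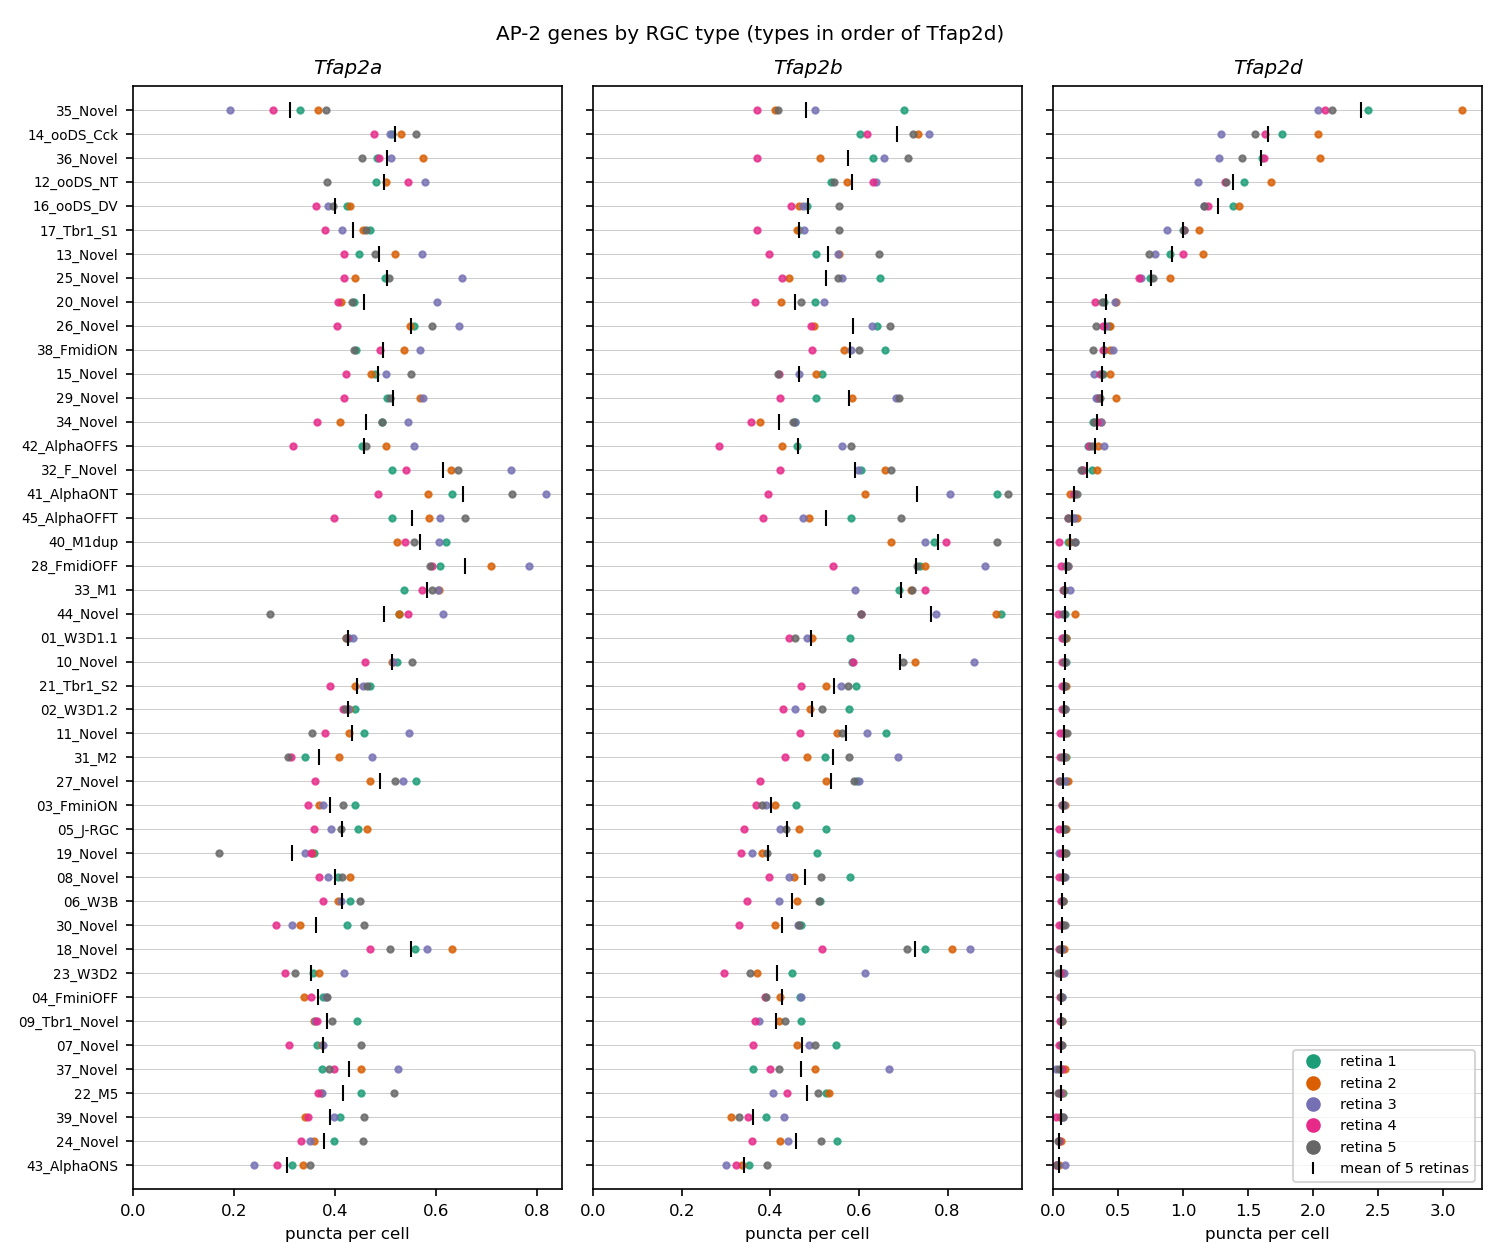
Puncta per cell of Tfap2a, Tfap2b and Tfap2d (horizontal axes, separate scales) in the 45 RGC types, which run down the page in the order of Tfap2d. Points are the 5 retinas and bars their mean. Tfap2d spans 0.042 to 2.37 puncta per cell, while every type mean lies between 0.305 and 0.656 for Tfap2a and between 0.340 and 0.779 for Tfap2b.

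Tfap2d was concentrated in a few types, among them the ON-OFF direction-selective (ooDS) cells, which respond to motion in a preferred direction. The unnamed type 35_Novel was highest, with 2.42, 3.14, 2.04, 2.09 and 2.15 puncta per cell in retinas 1 to 5 (mean 2.37 ± 0.46 SD). It was above the next type in 5 of 5 retinas and held 428 cells. Next came 14_ooDS_Cck, with 1.76, 2.03, 1.29, 1.63 and 1.56 (mean 1.65 ± 0.27), and 36_Novel, with 1.60, 2.05, 1.27, 1.62 and 1.45 (mean 1.60 ± 0.29). These neighbours overlapped, and 14_ooDS_Cck was the higher in 4 of 5 retinas. The other ooDS types followed, 12_ooDS_NT at 1.38 ± 0.21 and 16_ooDS_DV at 1.26 ± 0.13, and then 17_Tbr1_S1 at 1.0 ± 0.088, 13_Novel at 0.915 ± 0.17 and 25_Novel at 0.749 ± 0.095. In each of these 8 types, retina 2 had the highest level.

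The step from 25_Novel to the ninth type, 20_Novel at 0.408 ± 0.069, held in all 5 retinas, as did 5 of the 44 steps in the order. The other such steps followed 35_Novel, 36_Novel, 16_ooDS_DV and 32_F_Novel. Types 9 to 16 in the order lay between 0.408 and 0.259 puncta per cell, and after 32_F_Novel came a gap to 29 types at or below 0.158. That boundary, at 0.2, was chosen after the values were seen. Of the alpha types, which have large cell bodies, 42_AlphaOFFS was 15th at 0.318, 41_AlphaONT and 45_AlphaOFFT 17th and 18th at 0.158 and 0.146, and 43_AlphaONS last. The lowest 2 types were 24_Novel at 0.0447 ± 0.0089 and 43_AlphaONS at 0.0418 ± 0.027, and their ranges overlapped.

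The 3 ooDS types held 45.8% of all Tfap2d puncta in 10.9% of the cells, and 46.0% ± 1.0 (SD) over the 5 retinas. The 8 highest types held 72.2% of Tfap2d puncta in 18.8% of the cells. For Tfap2b the ooDS share was 12.1% and for Tfap2a 11.5%, close to the share of cells. The 4 W3 types, small and numerous RGCs, held 4.65% of Tfap2d puncta in 19.6% of the cells, against 18.7% of Tfap2b and 18.5% of Tfap2a puncta. The 3 types named for Tbr1 held 8.45% of Tfap2d puncta in 8.91% of cells. They were not alike, since 17_Tbr1_S1 was sixth in the order while 21_Tbr1_S2 and 09_Tbr1_Novel were among the 29 lowest.

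Cells of the high types held varying numbers of Tfap2d puncta. A cell with 0 puncta at this depth may still express the gene. In 35_Novel 42.3% of cells held 3 or more Tfap2d puncta, 27.1% in 14_ooDS_Cck, 25.6% in 36_Novel, 19.7% in 12_ooDS_NT and 18.7% in 16_ooDS_DV. At least 1 was found in 78.3% ± 6.7 of 35_Novel cells and 66.6% ± 4.5 of 14_ooDS_Cck cells, against 3.82% ± 2.3 of 43_AlphaONS cells. The plot of Tfap2d puncta per cell shows these shares for the 18 highest types. Across the 45 types, the variance of Tfap2d among cells divided by its mean ran from 1.04 to 2.09, with a median of 1.2.

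**Figure D2:**
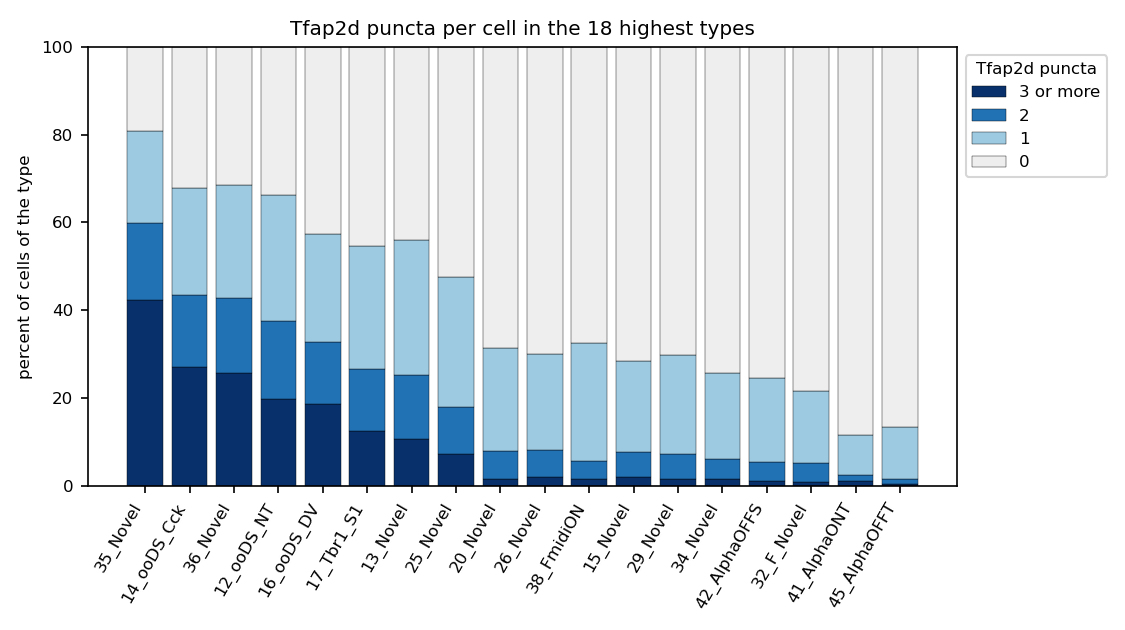
Share of cells (percent) with 3 or more, 2, 1 or 0 Tfap2d puncta in the 18 types with the highest mean level, cells of all retinas pooled. The dark part, 3 or more puncta, is 42.3% in 35_Novel and 7.19% in 25_Novel, and below 2% from 20_Novel on.

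Tfap2a had no type that stood apart. The 8 highest were 28_FmidiOFF at 0.656 ± 0.087, 41_AlphaONT at 0.653 ± 0.13, 32_F_Novel at 0.614 ± 0.093, 33_M1 at 0.581 ± 0.029, 40_M1dup at 0.568 ± 0.042, 45_AlphaOFFT at 0.552 ± 0.10, 18_Novel at 0.549 ± 0.063 and 26_Novel at 0.549 ± 0.090. In 28_FmidiOFF the retinas gave 0.608, 0.709, 0.784, 0.591 and 0.588 puncta per cell, and in the lowest type, 43_AlphaONS, 0.314, 0.336, 0.238, 0.286 and 0.350, so the ends of the order did not overlap. None of the 44 steps between neighbours held in all 5 retinas. The type with the most Tfap2d, 35_Novel, had the second lowest Tfap2a level at 0.310 ± 0.077. Set against the depth of the type, 33_M1 ranked first and 45_AlphaOFFT 33rd, and 5 of the 8 highest types were shared between the scales.

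Tfap2b was as flat, and several of its high types were the same. The 8 highest were 40_M1dup at 0.779 ± 0.087, 44_Novel at 0.763 ± 0.16, 41_AlphaONT at 0.731 ± 0.23, 28_FmidiOFF at 0.728 ± 0.12, 18_Novel at 0.727 ± 0.13, 33_M1 at 0.694 ± 0.060, 10_Novel at 0.691 ± 0.11 and 14_ooDS_Cck at 0.686 ± 0.071. The first of these, 40_M1dup, had 0.769, 0.671, 0.750, 0.796 and 0.911 in retinas 1 to 5. The lowest, 43_AlphaONS, had 0.351, 0.336, 0.301, 0.321 and 0.392, below every retina of 40_M1dup. Just above it was 39_Novel at 0.362 ± 0.049. None of the 44 steps of Tfap2b held in all 5 retinas. The levels of 18_Novel and 14_ooDS_Cck rest in part on 52 cells each with at least 8 Tfap2b puncta, described below.

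Across types, Tfap2a and Tfap2b were most alike to Gad1, which encodes the GABA-synthesising enzyme of inhibitory neurons. Spearman's rho over the 45 types, in puncta per 1000, was 0.94 between Tfap2a and Gad1, the highest among the panel genes. It was followed by Chat, which makes acetylcholine in starburst amacrine cells, at 0.85, Tfap2b at 0.84 and the potassium channel Kcna5 at 0.83. For Tfap2b the order was Gad1 at 0.90, C1ql2 at 0.87, Tfap2a at 0.84 and Kcna5 at 0.82. For Tfap2d it was the transcription factors Meis2 at 0.76, Pou4f3 at 0.65 and Pax2 at 0.60, then the vesicle protein Rab3b at 0.53. Gad1 came to 0.41 for Tfap2d, Tfap2a to 0.46 and Tfap2b to 0.37. Gad1 is 1 gene of the amacrine list, and with the summed list of 17 genes the order was another, at 0.69 for Tfap2d, 0.58 for Tfap2a and 0.39 for Tfap2b. The list's sum is mostly Pax6 and Meis2, and members such as Gjd2 (−0.20 with Tfap2a) and Nfia (0.03) did not follow Tfap2a. These are descriptions over 45 types that share libraries and depth. Within single retinas, rho of Tfap2a with Gad1 ran from 0.60 to 0.90, of Tfap2b with Gad1 from 0.78 to 0.90, and of Tfap2d with Meis2 from 0.67 to 0.80.

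**Figure D3:**
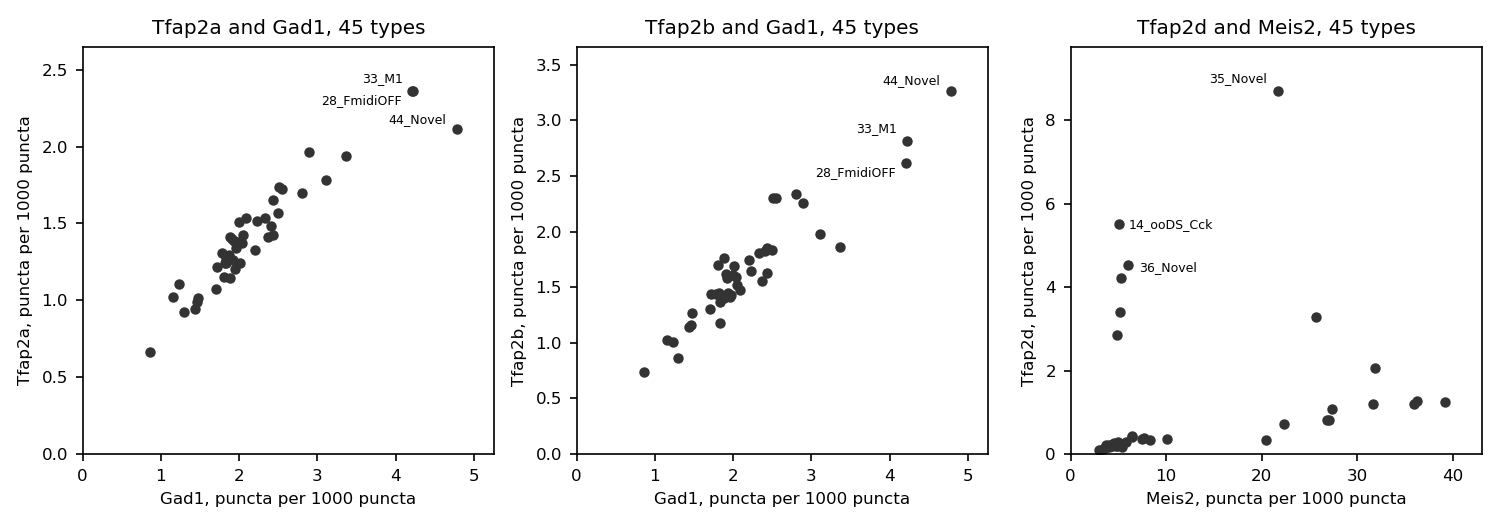
Mean level over the 5 retinas of Tfap2a and Tfap2b against Gad1 and of Tfap2d against Meis2, in puncta per 1000 puncta, 1 point for each of the 45 types, with the 3 highest types of each member named. Tfap2a and Tfap2b lie along 1 line with Gad1 (rho 0.94 and 0.90), while Tfap2d against Meis2 (rho 0.76) has high types at low as well as high Meis2.

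Between sections, Tfap2a and Tfap2b again went with Gad1. Over the 30 sections with at least 500 cells, Tfap2a ran from 0.20 to 0.669 puncta per cell (median 0.425), Tfap2b from 0.193 to 0.816 (median 0.485) and Tfap2d from 0.217 to 0.444 (median 0.324). Over these sections rho with Gad1 was 0.91 for Tfap2a, 0.83 for Tfap2b and −0.22 for Tfap2d. Over all 41 sections it was 0.87, 0.91 and −0.60. Sections of 1 retina share an animal, so no test is given.

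The 2 highest Tfap2b values lay in the 2 smallest sections, but small sections were not all high. A section of 49 cells in retina 3 had 0.469 Tfap2b and 4.08 Rbpms puncta per cell. One of 211 cells in retina 1 had 0.275 Tfap2b and 4.13 Rbpms. In retina 1, a section of 19 cells had 4.37 Tfap2b and 2.11 Tfap2a puncta per cell, and a section of 28 cells had 2.89 and 1.29. In those sections Gad1 stood at 2.79 and 2.68 puncta per cell, Rbpms at 0.263 and 0.714 and Slc17a6 at 2.21 and 0. The 30 larger sections ranged from 0.254 to 1.2 for Gad1, from 4.24 to 8.92 for Rbpms and from 8.86 to 14.5 for Slc17a6. The cells of these 2 sections thus carried the authors' RGC label with low or absent RGC markers. Small sections of other retinas also had low RGC markers. In retina 4, sections of 65 and 77 cells had 1.97 and 1.45 Tfap2b, 1.08 and 2.04 Rbpms and 1.31 and 3.88 Slc17a6 puncta per cell. In retina 3, a section of 134 cells had 0.948 Tfap2b, 0.276 Tfap2a, 1.36 Rbpms and 1.95 Slc17a6. The part of such sections in the Tfap2a and Tfap2b levels was not tested. Over the 11 small sections the median was 0.184 puncta per cell for Tfap2d, and their 1719 cells are few beside the 129660 of the others.

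**Figure D4:**
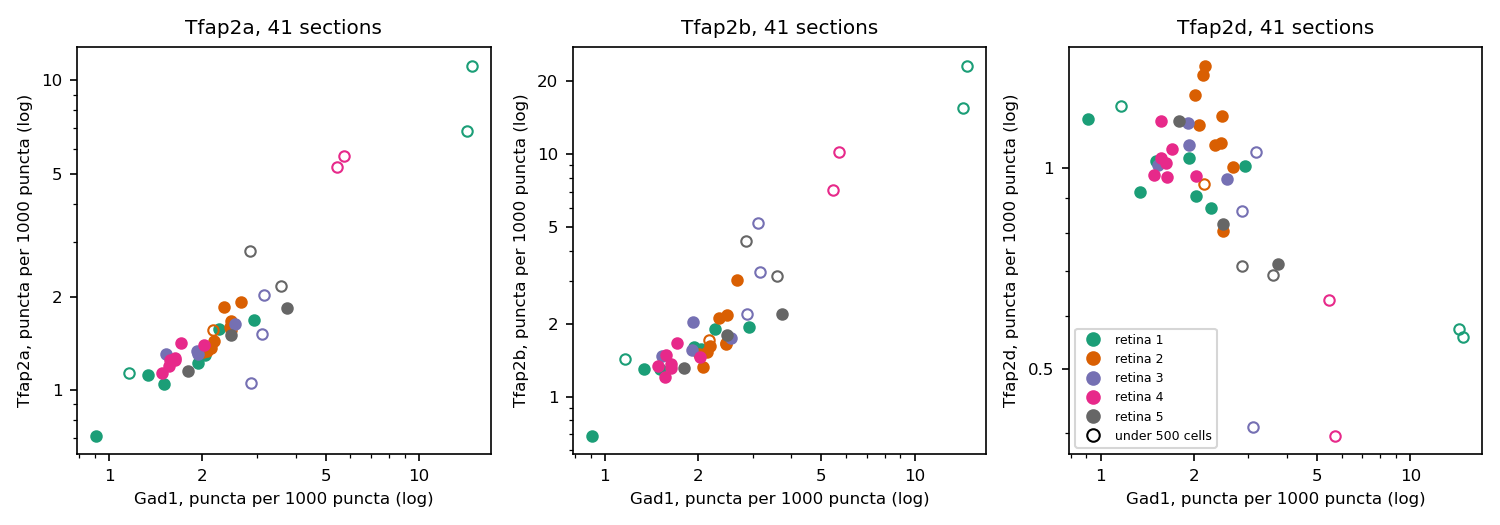
Level of each AP-2 gene against Gad1 in the 41 sections, in puncta per 1000 puncta on log axes, coloured by retina, with sections under 500 cells as open circles. Sections with more Gad1 have more Tfap2a (rho 0.87) and Tfap2b (rho 0.91), up to the small sections of retina 1, and less Tfap2d (rho −0.60).

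Cells with at least 1 punctum of a member were then compared with cells without, over the other 299 genes. Counts were summed per retina and fitted with edgeR, with the retina as a block and adjusted p under 0.05 as the threshold. With Tfap2a, 178 of 299 genes (59.5%) passed, 85 higher (28.4%) and 93 lower (31.1%). With Tfap2b 208 (69.6%) passed, 109 higher (36.5%) and 99 lower (33.1%), and with Tfap2d 237 (79.3%), 117 higher (39.1%) and 120 lower (40.1%). A second fit with limma gave both sets of cells the same mix of types, and left out types with under 20 cells on a side, so that for Tfap2d it kept 78.5% to 99.2% of the cells of a retina. In it 178 genes (59.5%) passed with Tfap2a, 29.4% of all genes higher and 30.1% lower. With Tfap2b 197 (65.9%) passed, 39.5% higher and 26.4% lower, and with Tfap2d 125 (41.8%), 14.4% higher and 27.4% lower. The counts of listed genes below stand against these shares.

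Cells with Tfap2a were higher in genes of inhibitory amacrine neurons. Gad1 stood at 3.30 ± 0.39 puncta per 1000 in cells with Tfap2a and 1.53 ± 0.17 in cells without (SD, n = 5 retinas), a log2 change of 1.1 ± 0.03 (SE; edgeR adjusted p = 3.0e-08). Tfap2b stood at 2.38 ± 0.18 and 1.24 ± 0.10 (log2 change 0.92), and Chat at 1.27 ± 0.13 and 0.644 ± 0.052 (0.97). The neuropeptides Sst (1.83) and Vip (1.00), C1ql2 (0.95), the nuclear receptor Nr4a2 (0.87) and Kcna5 (0.86) made up the rest of the 8 largest. All 8 were higher in 5 of 5 retinas, which was a condition of being named. Sst and Vip were rare, with puncta in 0.333% and 1.30% of all cells (means over retinas). Decreases were smaller, among them Cdh5 at −0.37, an endothelial cadherin, Spp1 (osteopontin) at −0.21, Zic1 at −0.21, Anxa2 at −0.20, Sh3bgr at −0.19, Hes1 at −0.18 and Pou4f3 at −0.16. With the same mix of types the change was 1.06 for Gad1, 0.93 for Chat and 0.90 for Tfap2b.

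Of the 17 amacrine markers tested, 14 were higher with Tfap2a and 0 lower in the edgeR fit, with a median log2 change of 0.29 beside −0.02 over all 299 genes. Of the 7 RGC markers, 0 were higher and 6 lower, with a median of −0.09. Slc17a6 was at 34.2 puncta per 1000 in cells with Tfap2a and 35.9 in cells without, and Rbpms at 19.3 and 20.8. Of 28 transcription factors of retinal neurons, 6 were higher and 13 lower, Bhlhe22 being the furthest up at 0.42 and Zic1 the furthest down. Of the 12 bipolar cell markers, 1 was higher (Prkca, 0.13) and 0 lower, while 3 of 5 Müller glia and 2 of 3 rod markers were higher and 0 lower.

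Cells with Tfap2b were higher in amacrine and in bipolar genes. The changes with Tfap2a and with Tfap2b were not tested against each other. Chat stood at 1.37 ± 0.15 puncta per 1000 in cells with Tfap2b and 0.572 ± 0.048 in cells without, a log2 change of 1.23 ± 0.05 (edgeR adjusted p = 9.8e-10). Gad1 stood at 3.19 ± 0.39 and 1.53 ± 0.17 (1.02 ± 0.03). The other large increases were Sst at 2.17, the horizontal cell factor Lhx1 at 1.17, the non-coding RNAs A930001A20Rik at 1.07 and Pantr1 at 0.98, C1ql2 at 0.98 and Npy at 0.94. Sst and Lhx1 were rare, with puncta in 0.333% and 0.774% of all cells (means over retinas). Tfap2a came to 0.80, outside the 8 largest. Spp1 at −0.31, Sh3bgr at −0.29, Lpl at −0.24, Coch, Tpbg and Scn4b at −0.22, and Penk and Gprc5b at −0.21 were the largest decreases, and Tpbg did not pass with the same mix of types (limma adjusted p = 0.10). The amacrine list had 13 of 17 higher and 0 lower (median 0.24, beside 0.00 over all genes), and the RGC list 0 higher and 6 of 7 lower. Lhx1 was the 1 gene of the 5 on the horizontal cell list that was higher, and 2 were lower (median −0.04). With Tfap2a the horizontal cell list had 0 higher and 4 of 5 lower (median −0.09).

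Of the 12 bipolar markers, 10 were higher with Tfap2b and 0 lower (median 0.48), as were 4 of 5 Müller glia and 2 of 3 rod markers. Among the bipolar markers were the transcription factor Vsx1 at 0.72, Gsg1 at 0.68 and the glutamate receptor Grm6 at 0.58. The levels were low: Vsx1 stood at 0.189 puncta per 1000 in cells with Tfap2b and 0.115 in cells without. With the same mix of types 10 of 12 were higher in limma, Vsx1 at 0.62. The part of other cells' transcripts in these differences was not tested.

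In cells with Tfap2d the largest increase of the named genes was in Pou4f3 and the largest decrease in Opn4. Pou4f3, a POU-domain factor of RGCs, stood at 2.26 ± 0.39 puncta per 1000 in cells with Tfap2d and 0.896 ± 0.10 in cells without, a log2 change of 1.47 ± 0.04 (edgeR adjusted p = 7.5e-12). The transcription factor Neurod2 stood at 0.928 ± 0.063 and 0.393 ± 0.018 (1.38). Then came Syndig1l at 1.27, Rab3b at 1.23, Tmem215 at 1.21, the GABA receptor subunit Gabrg3 at 0.97, the protocadherin Pcdh11x at 0.95 and the synaptic organiser Cbln2 at 0.92. The largest decreases were the melanopsin gene Opn4 at −1.56, which stood at 0.209 ± 0.039 puncta per 1000 with Tfap2d and 0.658 ± 0.035 without, and the T-box gene Tbx20 at −1.42. Zic1 at −1.2, Prkcq at −1.08, the intermediate filament Prph at −1.02, Gsg1 at −0.90, the calcium channel Cacna1e at −0.86 and Lmo2 at −0.85 followed. The 8 increases and the 8 decreases each went the same way in 5 of 5 retinas, which was a condition of being named.

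With the same mix of types most of the named changes were smaller. Pou4f3 came to 0.35 and Neurod2 to 0.30, Rab3b to 0.40 and Opn4 to −0.34 (limma adjusted p = 2.7e-05, 0.00080, 0.0011 and 0.00095). Tmem215 (0.07), Zic1 (−0.04), Prkcq (−0.08) and Lmo2 (−0.13) no longer passed. Gsg1 was not smaller, at −1.0 (limma adjusted p = 0.00015). Of the 12 bipolar markers, 10 were lower with Tfap2d in the edgeR fit and 1 higher (median −0.37), and 9 were lower and 0 higher with the same mix of types (median −0.56, beside −0.04 over all genes). Some lists of other cells were lower as well: 3 of 3 rod, 3 of 3 cone and 2 of 2 microglia markers and the 1 endothelial marker in the edgeR fit, and 3, 2, 0 and 0 of these with the same mix of types. Of 5 horizontal cell markers, 4 were lower and 1 higher in the edgeR fit, and 3 lower and 0 higher with the same mix. For other lists the count depended on the scaling. In the edgeR fit 1 of 5 Müller glia markers was lower, 1 of 3 astrocyte markers was lower and 1 higher, and the 1 pericyte marker did not pass. With total puncta as the library size, 5 of 5 Müller glia and 2 of 3 astrocyte markers were lower and 0 higher. The pericyte marker again did not pass.

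Smaller changes with Tfap2d depend on the scaling. Taking total puncta as the library size in place of TMM moved the median of all genes by −0.14 on the log2 scale, and the calls became 78 higher and 172 lower. The amacrine list then had 4 higher and 6 lower of 17, in place of 6 higher and 2 lower, and the RGC list 3 higher and 3 lower of 7, in place of 4 and 2. Gad1 is an example, at 2.03 puncta per 1000 in cells with Tfap2d and 2.11 in cells without, with a log2 change of 0.08 under TMM scaling (edgeR adjusted p = 0.019) and −0.06 under total scaling (adjusted p = 0.053). Tfap2a and Tfap2b were also of this kind, at 0.04 and 0.05 with Tfap2d under TMM (adjusted p = 0.29 and 0.12) and −0.10 and −0.09 under total scaling (adjusted p = 0.0070 and 0.010). Of 28 transcription factors 10 were higher and 17 lower with Tfap2d under TMM and 6 and 18 under total scaling, with Pou4f3, Neurod2, Meis2 (0.77) and Bhlhe22 (0.70) up on either scale and Tbx20, Zic1, Eomes (−0.80) and Foxp2 (−0.73) down.

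Whether the members met in the same cells was tested after thinning every cell to 100 puncta, so that depth was equal. Tfap2b was found in 22.3% ± 0.29 of thinned cells with Tfap2a and 12.8% ± 0.69 of thinned cells without (SD, n = 5 retinas). The log2 odds ratio was 0.94, 1.02, 0.91, 1.09 and 0.90 in retinas 1 to 5, a mean of 0.97 ± 0.08, above 0 in 5 of 5. Flipping the signs of the 5 values gave an exact two-sided p = 0.0625, the smallest that 5 retinas allow, and 0.1875 after Benjamini-Hochberg adjustment over the 3 pairs, so the test could not pass 0.05. Stratified by type, the log2 odds ratio was 0.92, nearly the same.

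Tfap2d was found in 8.49% ± 0.89 of thinned cells with Tfap2a and 8.41% ± 0.81 of those without. The log2 odds ratio was 0.01 ± 0.08 (above 0 in 3 of 5 retinas, exact p = 0.6875). With Tfap2b it was −0.10 ± 0.11, above 0 in 1 of 5 retinas (exact p = 0.125, adjusted 0.1875), with 7.99% ± 0.94 against 8.49% ± 0.81. Without thinning, where depth was not equal, both pairs came to above 0, at 0.17 and 0.15. The part of depth in this difference was not tested. With Gad1, thinned in the same way, the log2 odds ratio was 1.22 ± 0.09 for Tfap2a, 1.18 ± 0.09 for Tfap2b and 0.01 ± 0.11 for Tfap2d.

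A small number of cells held many AP-2 puncta. The bound of 8 was chosen after the values were seen, so what follows is a description. At least 8 Tfap2b puncta were found in 382 cells, which had a median depth of 313, against 292 in cells with none. They held 17.5 ± 6.0 Gad1 puncta per 1000 and cells without Tfap2b 1.53 ± 0.17 (SD, n = 5 retinas). For Chat the levels were 3.86 ± 0.66 and 0.572 ± 0.048, for Tfap2a 10.2 ± 2.9 and 1.1 ± 0.068, for Slc17a6 14.6 ± 6.7 and 35.9 ± 1.5, and for Rbpms 7.68 ± 3.5 and 20.7 ± 0.83. In every retina these cells were above the cells without Tfap2b in Gad1, Chat and Tfap2a and below them in Slc17a6 and Rbpms.

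They were unevenly spread over the types. The types 14_ooDS_Cck and 18_Novel held 52 of the cells each, 13.6% of the 382, with 3.02% and 2.46% of all cells, followed by 12_ooDS_NT with 37 and 10_Novel with 32. In 18_Novel, the 52 cells had 2.32 Slc17a6 puncta per 1000 and the cells without Tfap2b 30.6, and Gad1 was at 28.8 and 1.57. The 2 types had the largest variance over mean of Tfap2b, 4.73 in 18_Novel and 4.62 in 14_ooDS_Cck, against a median of 1.95 over types. Without the 52 cells it was 1.84 in 18_Novel and 1.97 in 14_ooDS_Cck. The mean over pooled cells was then 0.538 in 18_Novel, in place of 0.729, and 0.516 in 14_ooDS_Cck, in place of 0.676. Taking out the highest cells lowers the mean of any type that has them, and the other types were not treated so.

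At least 8 Tfap2a puncta were found in 143 cells, which had 14 ± 3.2 Gad1 puncta per 1000 against 1.53 ± 0.17 in cells without Tfap2a. Their Tfap2b level was 13.6 ± 6.8 against 1.24 ± 0.10. For Tfap2d the direction was the opposite. The 168 cells with at least 8 Tfap2d puncta had a median depth of 513 against 291, with 3 to 85 of them in a retina. They had 1.07 ± 0.36 Gad1 puncta per 1000 against 2.11 ± 0.26 and 44.7 ± 4.1 for Slc17a6 against 34.6 ± 1.6. Of these, 51 lay in 14_ooDS_Cck, 42 in 16_ooDS_DV, 27 in 12_ooDS_NT and 21 in 36_Novel.

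Positions were compared along the radius and along the X and Y axes of the authors' circle coordinates, whose anatomical directions are not given. In edgeR, 20 of 300 genes (6.67%) passed between periphery and centre, 30 (10%) along X and 0 (0%) along Y, and of the AP-2 genes 0 of 3 passed on any axis. These shares are unstable: with 1 retina left out 2 to 53 genes passed along the radius and 2 to 43 along X, and 3 (1%) passed along X with the same mix of types. Along Y 29 genes had an unadjusted p under 0.05, and DESeq2 called 6.

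Tfap2a was at 0.426 ± 0.030 puncta per cell in the periphery and 0.480 ± 0.078 in the centre (SD, n = 5 retinas). Per cell, both Tfap2a and Tfap2b were higher in the periphery than in the centre in retinas 2, 4 and 5. The log2 changes are scaled to depth. For Tfap2a the change was −0.18 ± 0.07 (SE, edgeR adjusted p = 0.15), and the retinas gave −0.42, −0.02, −0.32, −0.07 and 0.00 in puncta per 1000. Retinas 1 and 3 were the lowest. Tfap2b was at 0.503 ± 0.068 and 0.550 ± 0.14, a change of −0.12 ± 0.11 (adjusted p = 0.47), and ran from −0.56 in retina 1 to 0.29 in retina 5. Gad1 changed by −0.23 along the same axis (adjusted p = 0.16), with −0.66 in retina 1. Tfap2d was at 0.327 ± 0.037 and 0.353 ± 0.045, a change of −0.13 ± 0.06 (adjusted p = 0.23), below 0 in 4 of 5 retinas, and −0.03 with the same mix of types. In 5 rings from the centre outward, each 0.2 of the radius wide except the last, which holds all cells from 0.8 on, Tfap2a averaged 0.524, 0.483, 0.452, 0.428 and 0.408 puncta per cell, and Tfap2d 0.364, 0.347, 0.345, 0.334 and 0.307. The SD over retinas in the first and last ring was 0.114 and 0.033 for Tfap2a and 0.039 and 0.025 for Tfap2d. From the first to the last ring, Tfap2a went from 0.676 to 0.366 in retina 1 and from 0.614 to 0.377 in retina 3. In retina 2 it went from 0.472 to 0.436, in retina 4 from 0.416 to 0.430 and in retina 5 from 0.441 to 0.430. The part of Gad1 in these radial values was not tested.

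Along X, Tfap2d changed by −0.09 ± 0.04 (edgeR adjusted p = 0.18), with all 5 retinas below 0, from −0.14 to −0.02. This holds for puncta per 1000. Per cell, Tfap2d was at 0.336 at positive X and 0.340 at negative X, and it was higher at positive X in retinas 1 and 2. Scaled to depth it was at 1.03 ± 0.14 puncta per 1000 at positive X and 1.09 ± 0.11 at negative X. Tfap2a changed by 0.01 and Tfap2b by 0.06 (adjusted p = 0.89 and 0.41). Along Y, Tfap2d changed by −0.12 ± 0.05 (adjusted p = 0.43), below 0 in 4 of 5 retinas, Tfap2a by 0.09 and Tfap2b by 0.11 (adjusted p = 0.59 and 0.55).

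**Figure D5:**
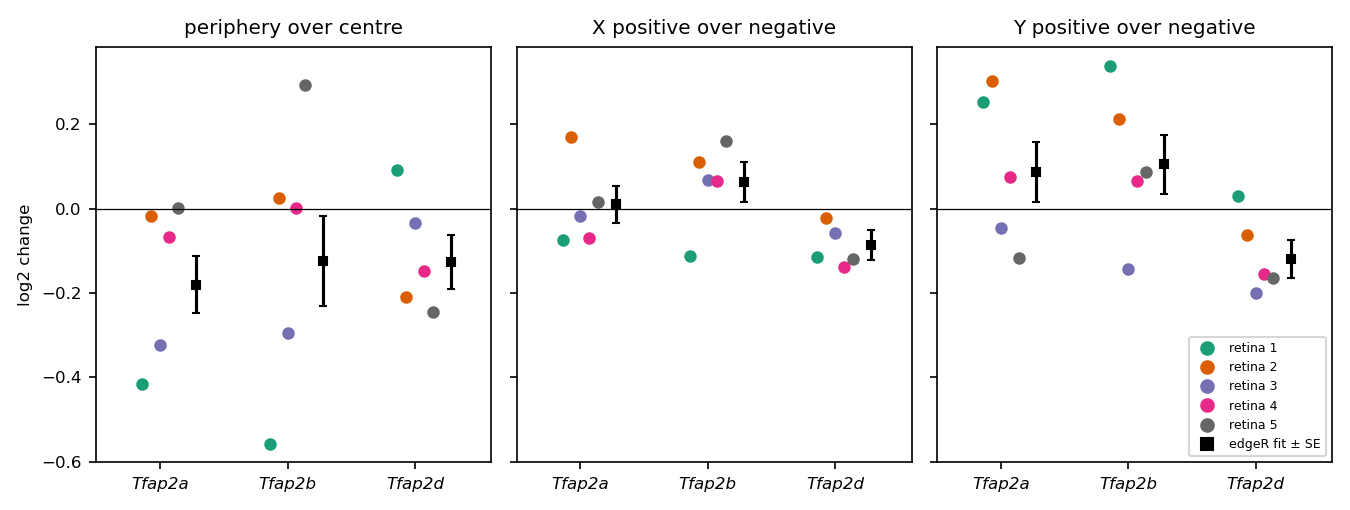
Log2 change of each AP-2 gene between periphery and centre, positive and negative X, and positive and negative Y, from puncta per 1000. Coloured points are the 5 retinas and black squares the edgeR fit with its SE. Retinas 1 and 3 are the lowest for Tfap2a and Tfap2b in the radial panel, and for Tfap2d all retinas lie below 0 along X.

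Within types, 0 of 112 tests of a member passed along the radius, against 2.34% of all 10227 pairs of type and gene. Along X and Y it was also 0, against 0.281% and 0.37% of pairs. Along the radius Tfap2a was below 0 in 35 of 40 types (median −0.17) and Tfap2b in 35 of 40 (median −0.16), while over all pairs 51.1% were above 0 (median 0.00). Tfap2d was below 0 in 24 of 32 types (median −0.06). Along Y, Tfap2b was above 0 in 35 of 42 types and Tfap2a in 29 of 42, beside 51.4% of all pairs. Types share their retinas, so these counts are not independent. The smallest p was for Tfap2a in 25_Novel, at 0.392 ± 0.030 puncta per cell in the periphery and 0.649 ± 0.21 in the centre, a change of −0.63 ± 0.16 (edgeR adjusted p = 0.053), below 0 in 5 of 5 retinas.

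In the types highest in Tfap2d, no radial test passed. Type 14_ooDS_Cck was at 1.67 ± 0.23 and 1.62 ± 0.34 puncta per cell in periphery and centre (log2 change 0.01 ± 0.07, edgeR adjusted p = 0.98). In 36_Novel it was −0.03 ± 0.12 and in 12_ooDS_NT 0.00 ± 0.07. Along Y, 36_Novel was at 1.46 ± 0.22 at positive and 1.73 ± 0.33 at negative Y (−0.33 ± 0.09, adjusted p = 0.21), 12_ooDS_NT changed by −0.18 and 14_ooDS_Cck by −0.19 (adjusted p = 0.29 and 0.35), and all 3 were below 0 in 5 of 5 retinas. Type 35_Novel had too few cells for this test, as did 41_AlphaONT, 40_M1dup and 44_Novel along the radius. In the types highest in Tfap2a, the radial change was −0.15 in 28_FmidiOFF, −0.17 in 32_F_Novel and 0.12 in 33_M1, and in Tfap2b −0.23 in 28_FmidiOFF, none past the threshold (adjusted p from 0.44 to 0.83).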

How the data were processed

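Xenium puncta were measured by the authors on en face mouse retina sections of 20 µm, and the deposited table, per the file headers, holds puncta counts per cell for 300 genes, as whole numbers with no normalization. Segmentation, cell filters and typing are not given in the sources used here. No label ties the 8 slides to the 4 deposited samples, so the retina named in the table was the replicate (n = 5), with 13127 to 41048 cells and 4048481 to 12879454 puncta each. Some retinas shared a slide: slide 18300 held sections of retinas 4 and 5, and slide 22825 sections of retinas 3 and 5.

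Counts were summed per retina and side, or per retina and cells with or without a member, at least 50 cells a side and 3 retinas within types, and fitted with edgeR 4.0.16 (quasi-likelihood, retina as block, TMM, filterByExpr) in R 4.3.3. P-values were adjusted by Benjamini-Hochberg over all genes, or over all pairs of type and gene, with a threshold of 0.05. The same-mix comparison used limma 3.58.1 on the 5 retina differences in log2 puncta per 1000, without TMM, with types of at least 20 cells per side. Its prior variance was trended on the gene's total count, a choice made after an untrended fit was seen. DESeq2 1.42.0 was the alternative tool. The radius was split at 0.5 and X and Y at 0. Co-detection used 1 odds ratio per retina with 0.5 added to each cell of the 2 by 2 count. Likeness used log2(puncta per 1000 + 0.01). The rest ran in Python 3.11.15 with pandas 2.3.3, numpy 2.4.6, matplotlib 3.10.9 and scipy 1.17.1, and simulated counts with known changes served to check both fits. The retina block rests on both sides of a contrast coming from the same retina.

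The members, lists and tests were chosen with earlier results of these data known. Genes named by group are the 8 with the largest change in each direction past the threshold, the same way in all retinas and with at least 100 puncta, the 4 most alike across types, and the 8 highest and 2 lowest types. Other genes were named from the lists after their values were seen. Some named genes are not reported here.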

Additional observations from a re-analysis of the deposited data

Results flagged for a closer look

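Of 45 sets of 5 retina values, 2 had a retina far from the others, where chance gives about 1 in 20. Tfap2d in 43_AlphaONS, the type with the lowest level, was at 0.0881 puncta per cell in retina 3, against 0.0407 in the next and 0.0230 in the lowest retina. The log2 odds ratio of Tfap2b with Tfap2d was 0.10 in retina 3, against −0.12 in the next and −0.18 in the lowest.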

How the results depend on the processing

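None of the 3 AP-2 genes passed along an axis in the main fits, and of the alternatives 1 changed this: with the slide within the retina as block, Tfap2a passed along the radius (−0.19, edgeR adjusted p = 0.033). That fit, like the fits by section, counts slides or sections of 1 retina as separate replicates. Its p is therefore not a measure of the spread between retinas. Directions turned for Tfap2a along X (main 0.01), at −0.011 with the section as block, −0.023 with the slide as block and −0.031 without retina 2, and for Tfap2b along Y (main 0.11), at −0.035 and −0.023 with section and slide as block. Leaving out 1 retina gave −0.21 to −0.12 for Tfap2a, −0.20 to −0.02 for Tfap2b and −0.19 to −0.07 for Tfap2d along the radius, −0.031 to 0.036 for Tfap2a along X, and 0 to 1 members called within types along the radius (1 without retina 1 or retina 2).

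Counts of genes along the axes were unstable. Along the radius they came to 44 with DESeq2, 1 with no replicate block (the pairing by retina left out), 41 by section, 12 for outermost against innermost cells and 2 to 53 with 1 retina left out (53, 3, 2 and 10 when that was retina 1, 2, 4 and 5). Along X they were 49 with DESeq2, 1 with no replicate block, 3 with the same mix of types and 2 to 43 with 1 retina left out (11, 2, 6 and 9 when that was retina 1, 2, 3 and 4). Along Y they were 6 with DESeq2, 41 by section, 3 for the outermost against innermost cells and 0 to 2 without 1 retina. With no replicate block, 33 genes passed with Tfap2a, 38 with Tfap2b and 152 with Tfap2d. In the same-mix fit 125 passed with Tfap2d. That fit also changed the tool to limma, left out TMM and left out types with few cells, so the cause was not tested. Leaving out 1 retina gave 148 to 172, 189 to 208 and 224 to 236. Under total puncta scaling the share of calls that were higher moved from 52.4% to 65.7% with Tfap2b and from 49.4% to 31.2% with Tfap2d. Of the named genes' values, 559 kept direction and side and 17 lost the threshold, 7 with Tfap2a and 4 with Tfap2b among them with no replicate block.

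The coefficient of variation across types was 25.1% per 1000 puncta for Tfap2a, 30.0% for Tfap2b and 157% for Tfap2d, and in thinned cells 24.5% for Tfap2b and 133% for Tfap2d. The odds ratio of Tfap2a with Tfap2b was 2.86 (log2) at 2 puncta of each. Tfap2d with Tfap2a was 0.17 in cells as deposited, and with Tfap2b 0.15, and 0.37 at 2 puncta. The settings without small sections and with total puncta scaling were chosen after seeing the data. Without the small sections, all values named for them kept their direction and side. Depth limits single cells, most of which hold 0 or 1 punctum of a member.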
